A study of Mus musculus with 6 samples.

Results

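Basic helix-loop-helix (bHLH) transcription factors of neuron formation were followed in mouse neural tube organoids by single-cell RNA sequencing. The genes are 9 in number, chosen by symbol, among 17296 genes counted in both deposited tables: Atoh1, Neurog1, Neurog2, Ptf1a, Olig3, Neurod1, Neurod4, Nhlh1 and Nhlh2. All 9 were found in both tables and all 9 passed the filter on low counts. The organoids were grown from a mouse embryonic stem cell line, Sox1::eGFP;Bra::mCherry, which carries fluorescent reporters of Sox1 and of Brachyury (T). Cells were embedded in Matrigel, given basic fibroblast growth factor and activin-A at the start of culture and then kept without them. Organoids that had not lengthened (non-elongated) gave 1 library, at day 6. Those that lengthened (elongated) gave 2 libraries at day 6, called replicates 1 and 2 here, and 1 library at day 7, 1 at day 8 and 1 at day 10. Each library pooled many organoids of this 1 line.

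Proneural bHLH proteins commit dividing progenitors to the neuronal fate by binding E-box motifs in DNA as dimers with the widely expressed E proteins. In the dorsal spinal cord and hindbrain each progenitor domain is known for its own set: Atoh1 for dP1 progenitors, which give rise to dI1 interneurons, Neurog1 and Neurog2 for dP2, and Ptf1a for dP4. Olig3 spans the domains dP1 to dP3. Neurod1, Neurod4, Nhlh1 and Nhlh2 act downstream, in committed precursors and newborn neurons, while Id proteins and most Hes and Hey proteins oppose proneural activity.

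There were 16282 cells in all, between 2076 and 3677 in a library, with 74072752 to 152742819 unique molecular identifiers (UMIs, 1 per captured RNA molecule) in a library. The median cell had 22053 UMIs at day 10 and up to 59014 in elongated replicate 2, so shares of cells with a UMI are given after thinning each cell to 8000 UMIs. The non-elongated library shares its table with elongated replicate 1, and replicate 2 shares its own with days 7, 8 and 10. Replicate, batch label and table therefore cannot be told apart. Levels are CPM, the gene's UMIs scaled to a common total, with TMM scaling for whole libraries and without it for cell classes. A gene was called changed at an adjusted p below 0.05 in edgeR's quasi-likelihood test. The only replicated group is elongated day 6. Every lone library is therefore assumed to vary as those duplicates do, with 1 residual degree of freedom. Nothing in the labels says that the duplicates came from separate cultures, so p-values measure the spread between these libraries. In summed libraries, more cells of a type and more RNA per cell cannot be told apart.

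Atoh1 (chr6:64729125-64731245, plus strand, 1 exon, GRCm38) had 0.0548 and 0.142 CPM in elongated day 6 replicates 1 and 2, 3.06 CPM at day 7, 4.30 CPM at day 8 and 33.2 CPM at day 10. All later libraries lay above both duplicates, and the step was already present at day 7. Against elongated day 6 the log2 fold change was 4.84 ± 0.47 (SE) at day 7, with an adjusted p of 0.0039 from edgeR, 5.33 ± 0.48 at day 8 (adjusted p = 0.000914) and 8.28 ± 0.51 at day 10 (adjusted p = 0.000126). The day 8 and day 7 libraries differed by 0.49 ± 0.49, and the day 10 and day 8 libraries by 2.95 ± 0.52, which missed the threshold in edgeR (adjusted p = 0.093) but passed it in edgeR with RLE scaling (0.0447) and in DESeq2 (7.29e-05).

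Neurog2 (chr3:127633135-127635631, plus strand, 2 exons) followed another course. It had 1.23 and 1.42 CPM in the elongated day 6 replicates, 0.933 CPM at day 7, 3.93 CPM at day 8 and 25.7 CPM at day 10. The day 7 library lay below both duplicates, and the day 8 and day 10 libraries lay above them. The log2 fold change against elongated day 6 was -0.51 ± 0.37 at day 7 (edgeR, adjusted p = 0.55), 1.57 ± 0.34 at day 8 (adjusted p = 0.0237) and 4.28 ± 0.35 at day 10 (adjusted p = 0.000319). The day 10 and day 8 libraries differed by 2.71 ± 0.43, which missed the threshold in edgeR (adjusted p = 0.0773) but passed it with RLE scaling (0.0364) and in DESeq2 (0.000307).

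Neurog1 (chr13:56250478-56252163, minus strand, 1 exon), its paralog, had 0.164 and 0.0778 CPM in the elongated day 6 replicates, 1.17 CPM at day 7, 3.31 CPM at day 8 and 3.80 CPM at day 10. It rose at day 7 (log2 3.33 ± 0.58, edgeR adjusted p = 0.0247), day 8 (4.83 ± 0.58) and day 10 (5.03 ± 0.59), and the day 10 and day 8 libraries were 0.20 ± 0.62 apart. The day 7 call was lost at a minimum count of 100 (adjusted p = 0.0519). Whether the time courses of Neurog1 and Neurog2 differ was not tested.

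Ptf1a (chr2:19445663-19447501, plus strand, 2 exons), best known from pancreas and from the GABAergic dI4 lineage, was first called at day 8. It had 0.0822 and 0.106 CPM in the elongated day 6 replicates, 0.111 CPM at day 7, 1.29 CPM at day 8 and 5.83 CPM at day 10. Its day 7 library lay within 0.01 CPM of replicate 2, and days 8 and 10 lay above every earlier library. It rose at day 8 (log2 3.74 ± 0.53, edgeR adjusted p = 0.0047) and at day 10 (5.91 ± 0.55, adjusted p = 0.000517). The endoderm markers Sox17, Foxa2 and Pdx1 had 0 UMIs in the day 8 and day 10 libraries. An exon of the opposite-strand gene Ptf1aos overlaps Ptf1a, and the sources used here do not say whether counting used strand.

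Olig3 (chr10:19356533-19358604, plus strand, 1 exon) was present throughout. It had 13.0 and 39.4 CPM in the elongated day 6 replicates, 50.9 CPM at day 7, 25.6 CPM at day 8 and 61.4 CPM at day 10. The duplicates themselves differed by 1.59 on the log2 scale, the widest gap of the 9 genes, and the day 8 library fell between them. No comparison called it: the log2 fold change was -0.03 ± 0.55 at day 8 and 1.23 ± 0.53 at day 10 (edgeR, adjusted p = 0.976 and 0.13).

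Among the downstream factors, Neurod1 (chr2:79452521-79456751, minus strand, 2 exons) had 1.15 and 1.84 CPM in the elongated day 6 replicates, 1.48 CPM at day 7, 4.29 CPM at day 8 and 15.7 CPM at day 10. It stayed between the duplicates at day 7 and lay above them afterwards, with log2 fold changes of 1.51 ± 0.41 at day 8 (edgeR, adjusted p = 0.0487) and 3.39 ± 0.41 at day 10 (adjusted p = 0.00137). The day 8 call was lost with no filter on low counts, with a minimum count of 100, in DESeq2 and in the neural classes alone, where the highest adjusted p was 0.0642. Exons of Cerkl and, on the opposite strand, Gm26755 overlap Neurod1, so its counts are uncertain to that extent.

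Neurod4 (chr10:130268152-130280240, minus strand, 2 exons) had 0.123 and 0.262 CPM in the elongated day 6 replicates, 0.651 CPM at day 7, 5.73 CPM at day 8 and 6.96 CPM at day 10. It missed the threshold at day 7 (log2 1.70 ± 0.53, edgeR adjusted p = 0.143) and rose at day 8 (4.84 ± 0.53) and day 10 (5.12 ± 0.54). The day 10 and day 8 libraries were 0.28 ± 0.59 apart.

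Nhlh1 (chr1:172052292-172057573, minus strand, 2 exons) and Nhlh2 (chr3:102010076-102015492, plus strand, up to 3 exons) mark newborn neurons. Nhlh1 had 0.0822 and 0.0849 CPM in the elongated day 6 replicates, 0.674 CPM at day 7, 10.0 CPM at day 8 and 36.8 CPM at day 10. Nhlh2 had 3 and 6 UMIs in the elongated day 6 replicates, 105 UMIs at day 7, 4584 UMIs at day 8 and 25534 UMIs at day 10. In both genes each later library lay above every earlier one. Nhlh1 rose by a log2 fold change of 2.99 ± 0.39 at day 7, 6.88 ± 0.39 at day 8 and 8.76 ± 0.41 at day 10 (edgeR, adjusted p = 0.0095, 0.000296 and 8.45e-05). It was also higher at day 8 than at day 7 (3.89 ± 0.43, edgeR adjusted p = 0.0244), a call lost at a minimum count of 100 and in the neural classes alone (highest adjusted p = 0.057).

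For Nhlh2 the log2 fold changes were 4.17 ± 0.35, 9.80 ± 0.34 and 12.53 ± 0.36 at days 7, 8 and 10, with edgeR adjusted p-values of 0.00355, 9.59e-05 and 2.31e-05. It also passed the threshold between day 8 and day 7 (5.63 ± 0.36, adjusted p = 0.00583) and between day 10 and day 8 (2.73 ± 0.31, adjusted p = 0.0327). The second of these calls was lost with no filter or with a minimum count of 100, where the highest adjusted p was 0.087. Against elongated day 6, DESeq2 gave Nhlh2 wider SEs of 0.60, 0.58 and 0.58 at days 7, 8 and 10. The elongated day 6 replicates hold only 3 and 6 UMIs, so the size of these changes is less certain than the edgeR SEs show.

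The 250 bases upstream of the start of Nhlh1 and Nhlh2 are shown because their patterns over classes and libraries were the most alike of the 36 pairs among the 9 genes (r = 0.97, defined with the most similar genes). They are from RefSeq (GRCm38.p6), written 5′ to 3′ on the gene's strand, chr1:172057597-172057846 (minus strand) for Nhlh1 and chr3:102009895-102010144 (plus strand) for Nhlh2. Capitals mark E-boxes, CANNTG, which read as CANNTG on both strands.
Nhlh1: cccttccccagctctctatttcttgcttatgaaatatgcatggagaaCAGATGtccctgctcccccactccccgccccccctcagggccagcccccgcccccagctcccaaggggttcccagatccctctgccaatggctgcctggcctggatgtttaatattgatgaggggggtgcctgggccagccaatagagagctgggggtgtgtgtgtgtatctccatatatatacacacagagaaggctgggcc
Nhlh2: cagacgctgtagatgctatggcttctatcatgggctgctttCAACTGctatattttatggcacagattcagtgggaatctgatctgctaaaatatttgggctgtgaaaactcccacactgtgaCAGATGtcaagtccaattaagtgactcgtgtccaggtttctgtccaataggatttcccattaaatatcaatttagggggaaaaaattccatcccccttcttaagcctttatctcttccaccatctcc

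The RefSeq start lies 23 bases upstream of the GENCODE start in Nhlh1 and 69 bases downstream of it in Nhlh2, so the last 69 bases of the Nhlh2 window lie inside the gene as GENCODE gives it. Both windows hold CAGATG, with its first base 203 bases before the RefSeq start in Nhlh1 and 127 bases before it in Nhlh2. The longest run the 2 windows share is ACAGATGTC, which 34 of 32851 upstream windows hold on the gene's strand (0.103%) and 64 hold on either strand (0.195%). Some genes have more than 1 window, so counts of genes are given beside shares of windows. CAGATG or its reverse complement CATCTG occurs in 14.4% of all windows and in 4409 of 27025 genes. Of the 9 genes it occurs in 2, Nhlh1 and Nhlh2. CANNTG, which includes both, occurs in 66.2% of all windows and in 18729 of 27025 genes. Of the 9 genes it occurs in 4 (Olig3, Neurod1, Nhlh1 and Nhlh2). CAGCTG occurs in 13.0% of all windows, in 3979 of 27025 genes and in 0 of the 9 genes. These matches describe the letters of the windows. The shared run was chosen because both windows hold it, so its share of all windows carries no test.

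**Figure D1:**
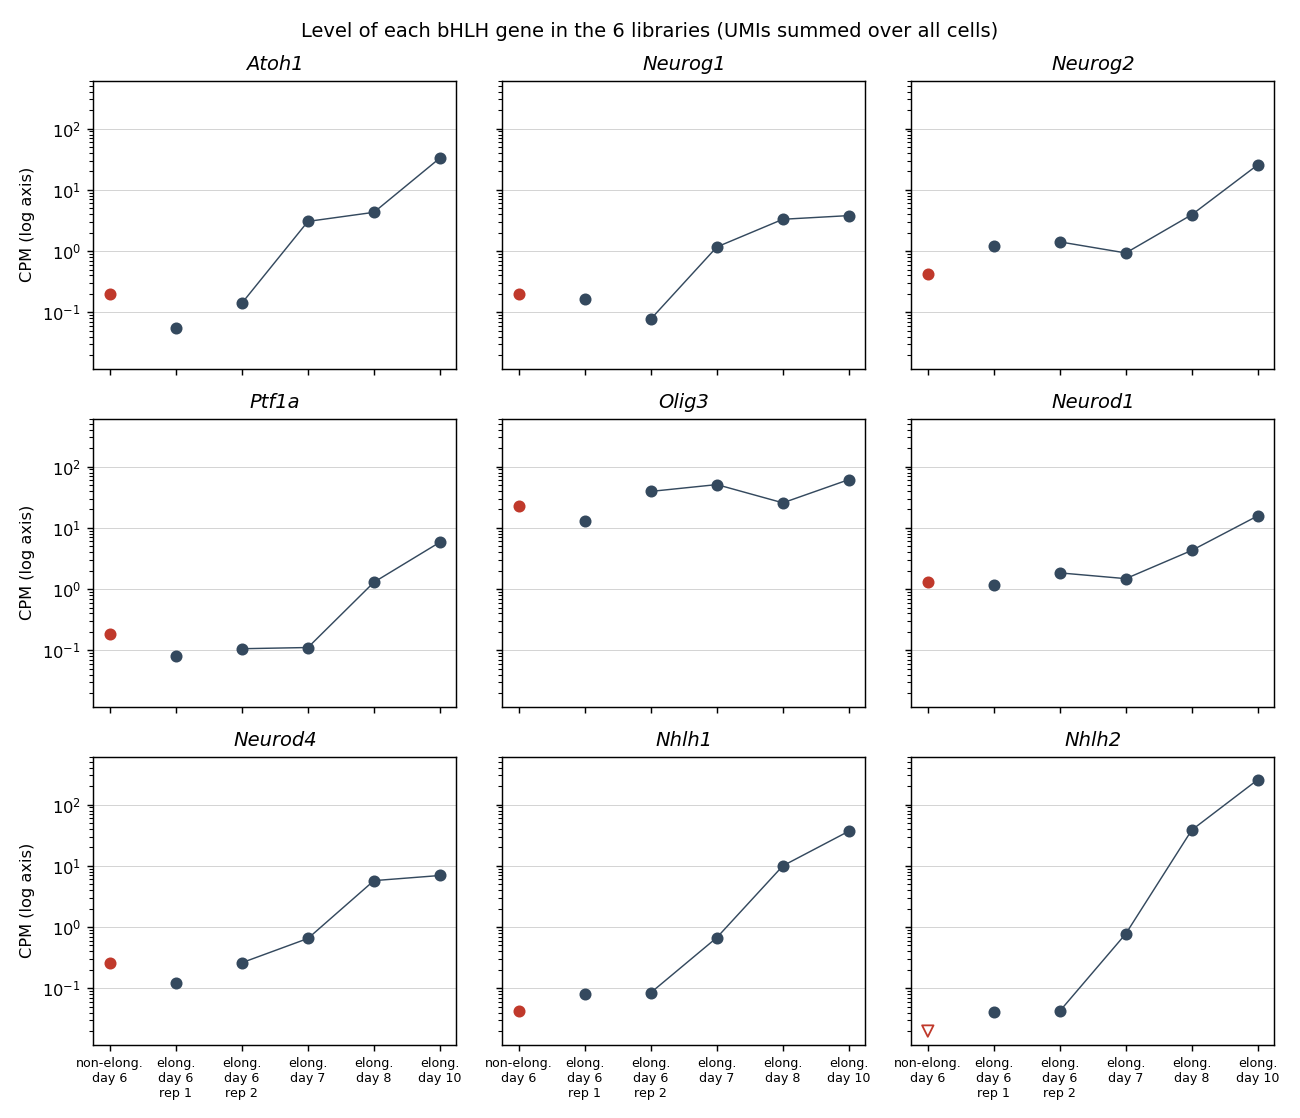
Level of each of the 9 genes in each library, in CPM with TMM scaling on a log axis. Each point is 1 library, the red point is the non-elongated library, the line joins the elongated libraries of 1 table, and the open triangle marks 0 UMIs. Nhlh2 climbs at each day to 25534 UMIs at day 10, Olig3 stays between 13.0 and 61.4 CPM, and Neurog1 and Neurod4 differ little between days 8 and 10.

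Counted over the 9 genes, 4 were called higher at day 7 (Atoh1, Neurog1, Nhlh1 and Nhlh2), where 1.9% of the 16379 genes tested were higher, 2.09% lower and 3.99% changed in either direction. At day 8, 8 of the 9 were higher, all except Olig3, where 6.74% of all genes were higher, 6.64% lower and 13.4% changed. At day 10 the same 8 were higher, where 14.1% of all genes were higher, 12.3% lower and 26.4% changed. None of the 9 was called lower in any comparison. The median log2 fold change of the 9 genes was 1.70, 4.83 and 5.12 at days 7, 8 and 10, and that of all genes tested was -0.01, 0.00 and -0.01. These 3 comparisons share the elongated day 6 libraries. Nhlh1 and Nhlh2 were higher at day 8 than at day 7 (0.293% of all genes were higher, 0.128% lower and 0.421% changed). Nhlh2 was higher at day 10 than at day 8 (0.171% of all genes were higher, 0.0244% lower and 0.195% changed). A fit of a slope over day in the 5 elongated libraries called 7 of the 9, all except Neurog1 and Olig3, where 11.3% of 15775 genes had a rising slope, 12.5% a falling one and 23.8% a slope in either direction. That count is 0 without elongated day 6 replicate 2, when no gene is called at all, and 3 without replicate 1.

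Non-elongated organoids were compared with elongated ones at day 6, before most of these genes were abundant. Neurog2 had 29 UMIs in the non-elongated library and 90 and 200 UMIs in the elongated replicates, or 0.419 CPM against 1.23 and 1.42 CPM. The non-elongated library lay below both, by a log2 fold change of -1.66 ± 0.41 (edgeR, adjusted p = 0.372). The difference was -1.55 against replicate 1 of the same table alone and -0.89 when the neural classes alone were summed. Class names differ between the tables: replicate 2 has no epiblast class, with 90.5% of its cells in mid/hindbrain and 5.45% in spinal cord. The neural classes alone therefore left out little of replicate 2 but much of the non-elongated library, where 45.6% of cells were caudal epiblast. No gene of the 9 passed the threshold, with 0% of all genes called. At an unadjusted p under 0.05 there were 2 of the 9 (Neurog2 and Nhlh2) and 1137 of all genes. DESeq2 called 0 of the 9 and 126 genes in all.

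Of the others, Nhlh2 had 0 UMIs in the non-elongated library, where up to 3 UMIs would be allowed, and 3 and 6 UMIs in the elongated replicates. Atoh1 had 14 UMIs in the non-elongated library, against 4 and 20 UMIs in the elongated replicates. Olig3 had 23.1 CPM in the non-elongated library, between the 13.0 and 39.4 CPM of the elongated replicates, so its log2 difference is 0.82 against replicate 1 and -0.77 against replicate 2. The make-up of the libraries moved with these values: 45.6% of non-elongated cells were in the authors' caudal epiblast class, against 18.2% in elongated replicate 1, and 7.96% of non-elongated cells were in the spinal cord class, against 24.4% in elongated replicate 1. Within the spinal cord class Neurog2 had 14 UMIs (2.55 CPM) in the non-elongated library and 61 UMIs (3.59 CPM) in elongated replicate 1. The part of class make-up in the difference was not tested.

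The cells that carried each gene were described with the authors' cell classes. The classes were made from these same cells, so differences between classes carry no test. At day 10, Atoh1 stood at 309.6 CPM in dP1 progenitors and at 47.7 CPM in dI1 neurons, against 2.33 CPM in dI2 and 1.93 CPM in dI3 neurons. The dP1 and dI1 classes held 48.2% and 13.1% of its UMIs. In dP1 it had 117 CPM at day 7, from only 7 cells, and 245.5 CPM in 36 cells at day 8. The dP1 class carried Olig3 (180.9 CPM) and Msx1 (114.3 CPM) at day 10. Lmx1a, also in the list of dP1 markers drawn up here, had 2 UMIs in it.

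Atoh1 was also found outside the dP1 and dI1 classes, and whether those cells belong to the same lineage was not tested. At day 10 the mid/hindbrain class had 18.8 CPM and the spinal cord class 20.6 CPM, against 0.974 and 0.581 CPM at day 8. In thinned cells, 9.66% of mid/hindbrain and 11.8% of spinal cord cells had an Atoh1 UMI at day 10, against 0.535% of dI2 and 0.82% of dI3 cells, with median depths of 25975, 23243, 18496.5 and 22509 UMIs. Premigratory neural crest classes carried it too: 5.20, 16.1 and 4.76 CPM in the pre-EMT cranial class and 3.67, 21.8 and 17.3 CPM in the pre-EMT vagal/trunk class at days 7, 8 and 10.

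Neurog2 was at 1.27, 16.7 and 180.4 CPM in the dP2/3 class at days 7, 8 and 10, and at 8.83, 19.7 and 85.4 CPM in proliferative neural progenitors. At day 10 dP2/3 was its highest class, and 53.6% of the thinned dP2/3 cells of day 10 had a UMI. That class held 48.6% of its day 10 UMIs. At day 6, when the library as a whole had little, it was at 9.43 CPM in the spinal cord class of elongated replicate 2 and at 0.829 CPM in the mid/hindbrain class. Neurog1 was at 7.37 CPM in dP2/3, 13.3 CPM in dI2, 13.6 CPM in the proliferative neural progenitor class and 3.86 CPM in mid/hindbrain cells at day 10. Ptf1a was at 37.4 CPM in dP2/3, 15.5 CPM in spinal cord and 13.1 CPM in proliferative progenitors at day 10. It had 0 UMIs in all 3 neural crest classes at days 8 and 10, and 2 UMIs in the dP1 class at day 10.

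**Figure D2:**
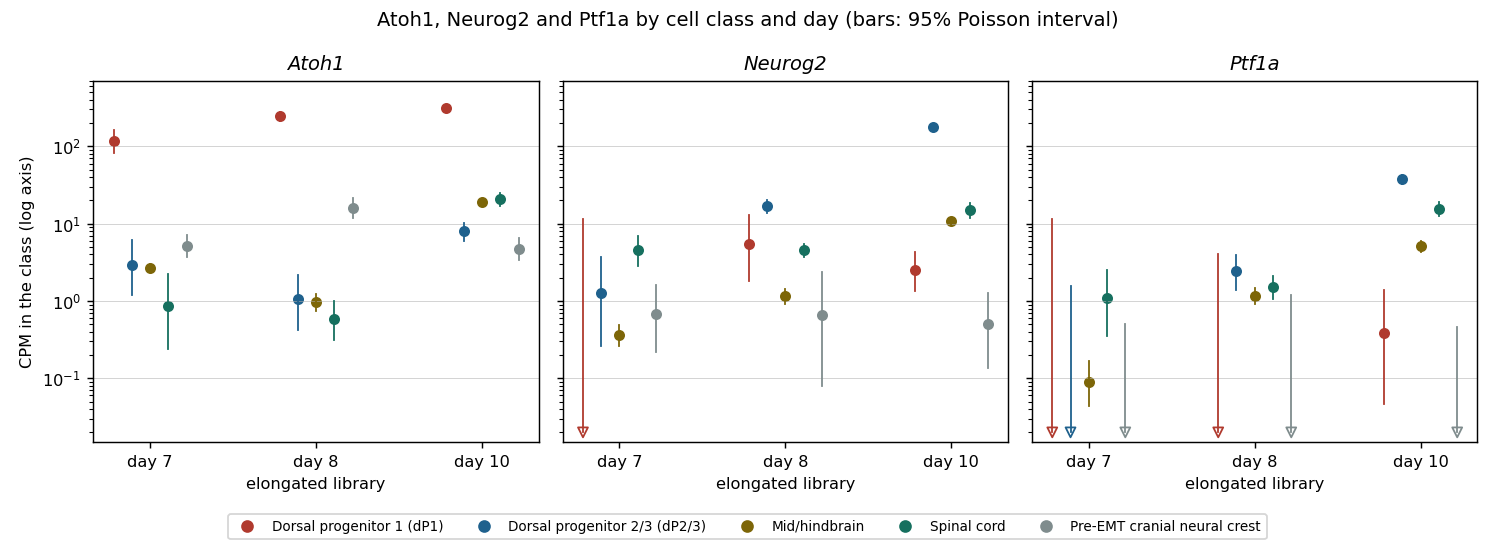
CPM of Atoh1, Neurog2 and Ptf1a in 5 of the authors' classes in the elongated day 7, day 8 and day 10 libraries, on a log axis. Bars are 95% Poisson intervals, which cover counting error only, and open triangles mark 0 UMIs. Atoh1 is highest in dP1 at each day, Neurog2 and Ptf1a reach 180.4 and 37.4 CPM in dP2/3 at day 10, and Ptf1a has 0 UMIs in pre-EMT cranial crest.

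Olig3 had its highest day 10 level in dP1 (180.9 CPM), then proliferative progenitors (126.7 CPM), mid/hindbrain (95.2 CPM), dP2/3 (60.5 CPM) and dI2 (58.5 CPM). It was also at 70.4, 73.2 and 24.0 CPM in pre-EMT cranial crest at days 7, 8 and 10, and at 1.46 CPM in migratory cranial crest at day 10. At day 6 it was at 27.8 CPM in the caudal epiblast class of the non-elongated library and at 29.0 CPM in that of elongated replicate 1. Mesenchyme had 1 UMI in the non-elongated library and 0 in elongated replicate 1.

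Nhlh2 was highest in the interneuron classes. At day 10 it was at 1535 CPM in dI2, 641.2 CPM in dI3 and 504.0 CPM in dI1. Of the other neural classes, proliferative progenitors came nearest, at 378.5 CPM, followed by 172.2 CPM in dP2/3, 134.3 CPM in dP1, 17.7 CPM in spinal cord and 10.5 CPM in mid/hindbrain cells. In thinned cells, 98.9% of dI2, 89.9% of dI3 and 90.8% of dI1 cells had a UMI. The share was 53.8% in proliferative progenitors and 4.15% in mid/hindbrain cells, against 3.14% in pre-EMT cranial crest cells. The part of free RNA in the low shares was not tested. Nhlh1 did not divide these classes in the same order: at day 10 it was at 164.8 CPM in dI2, 85.8 CPM in dP2/3, 78.0 CPM in dI1, 63.5 CPM in proliferative progenitors, 57.9 CPM in dP1, 52.5 CPM in dI3 and 2.24 CPM in mid/hindbrain cells.

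Neurod4 divided the classes differently. It was at 43.6 CPM in proliferative progenitors, 31.9 CPM in dP2/3, 14.6 CPM in dI3 and 13.2 CPM in dI2, but at 2.71 CPM in dP1 and 0.66 CPM in dI1 at day 10. At day 8 it was at 80.2 CPM in dI2 and 2.45 CPM in dI1. Neurod1 was at 104.9 CPM in proliferative progenitors, 64.7 CPM in dI2, 27.3 CPM in dP2/3, 16.6 CPM in dI1 and 12.8 CPM in dP1 at day 10. A few cells carry the first 2 of these values: 8 cells held 284 of the 479 Neurod1 UMIs of proliferative progenitors (59.3%), and 7 cells held 229 of the 472 UMIs of dI2 (48.5%). Names of classes rest on the authors' annotation: the dI2 class carried Lhx1 at 549.9 CPM but Foxd3, another dI2 marker, at 2.74 CPM, and the dI3 class carried Tlx3 at 169.3 CPM but Isl1 at 9.22 CPM. The dI1 class carried Barhl1, Barhl2, Lhx2 and Lhx9 at 140.5, 123.3, 438.3 and 396.1 CPM.

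**Figure D3:**
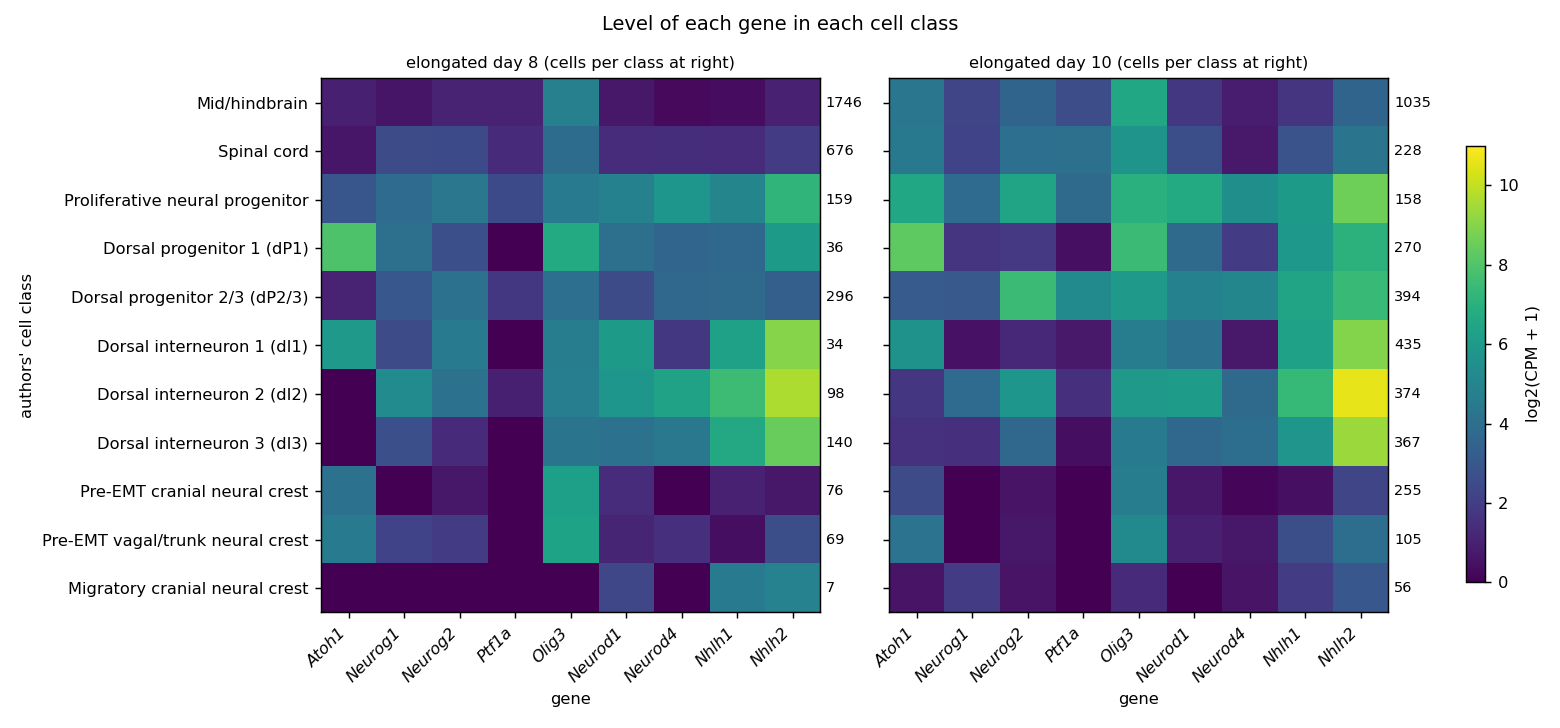
Level of the 9 genes in the authors' 11 cell classes at day 8 and day 10, as log2(CPM + 1), with the number of cells in each class at the right. Atoh1 is brightest in dP1, Neurog2 in dP2/3 at day 10, and Nhlh2 in the interneuron classes.

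Cells with UMIs of 2 of the genes were counted in thinned cells. At day 10, 494 cells had Atoh1, 472 had Neurog2, 145 had Ptf1a and 91 had Neurog1, of 3675 cells. At day 10 Atoh1 was seldom found together with the other subtype factors. Among the 494 Atoh1 cells, 7 also had Neurog2 (1.42%), 5 had Neurog1 (1.01%) and 2 had Ptf1a (0.405%), against 12.8%, 2.48% and 3.95% of all cells. At day 8 the shares lay near those of all cells and rest on few cells: of 65 Atoh1 cells, 2 had Neurog2 (3.08%), 1 had Neurog1 (1.54%) and 1 had Ptf1a (1.54%), against 3.00%, 2.58% and 1.11% of all cells.

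Ptf1a and Neurog2 overlapped instead. At day 10, 97 of the 145 Ptf1a cells (66.9%) had Neurog2, against 12.8% of all cells. At day 8, 8 of 37 Ptf1a cells (21.6%) had Neurog2, against 3.00% of all cells. Ptf1a and Neurog1 shared 0 cells at day 8 and 0 at day 10, where 2.58% and 2.48% of all cells had Neurog1, and without thinning they shared 3 cells at each day. Neurog1 and Neurog2 shared 29 cells at day 10, which is 31.9% of the Neurog1 cells and 6.14% of the Neurog2 cells. Of all day 10 cells, 12.8% had Neurog2 and 2.48% had Neurog1.

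Olig3 divided the subtype factors at day 10, and not all of this held at earlier days. At day 10 it was found in 295 of 494 Atoh1 cells (59.7%), 65 of 91 Neurog1 cells (71.4%) and 116 of 472 Neurog2 cells (24.6%), but in 10 of 145 Ptf1a cells (6.90%), against 29.4% of all cells. At day 8 it was found in 30 of 65 Atoh1 cells and 0 of 37 Ptf1a cells, against 13.2% of all cells. Neurog1 and Neurog2 cells lay near that share at day 8, with 15 of 86 (17.4%) and 13 of 100 (13.0%). At day 7 Olig3 was found in 35 of 69 Atoh1, 3 of 23 Neurog1 (13.0%), 5 of 13 Neurog2 and 0 of 3 Ptf1a cells, against 27.3% of all cells. Nhlh1 and Nhlh2 shared 625 cells at day 10, 84.5% of the Nhlh1 cells and 41.6% of the Nhlh2 cells. Of all day 10 cells, 40.9% had Nhlh2 and 20.1% had Nhlh1. Doublets were not called here, and between 1 and 4 cell barcodes were shared by any pair of libraries.

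**Figure D4:**
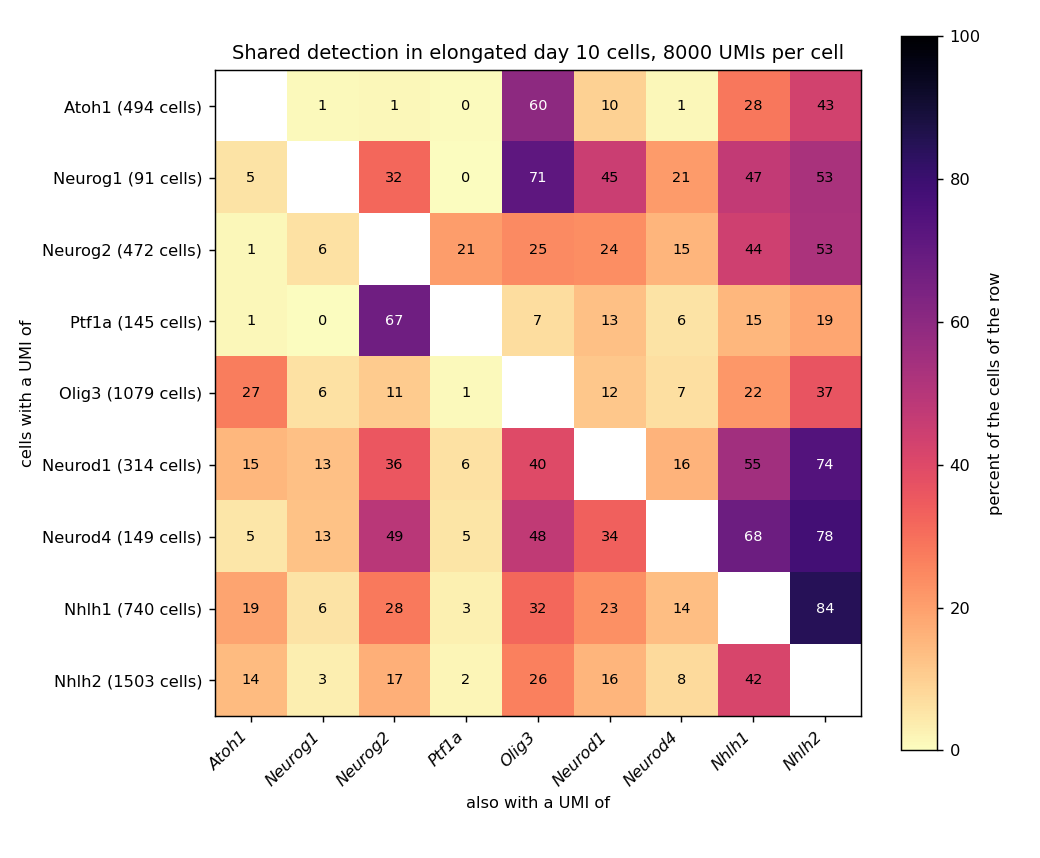
Percent of the day 10 cells with a UMI of the row gene that also had a UMI of the column gene, after thinning to 8000 UMIs per cell. Of the Atoh1 row, 60% of cells share Olig3 and 1.42% or fewer share Neurog1, Neurog2 or Ptf1a, and of the Ptf1a row, 67% share Neurog2.

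The genes were placed between progenitor and neuron by other genes of the same cells: Sox2, a progenitor factor, Mki67, a marker of cycling cells, and Dcx, a microtubule protein of young neurons. At day 10, 9.0% of Ptf1a cells had a Dcx UMI, as did 31.9% of Neurog1, 34.2% of Olig3, 37.7% of Neurog2, 42.1% of Atoh1, 51.0% of Neurod4, 60.2% of Neurod1, 75.4% of Nhlh1 and 82.2% of Nhlh2 cells, against 40.5% of all cells. Sox2 ran the other way, with 84.8% of Ptf1a, 44.3% of Neurod1, 43.6% of Neurod4, 27.0% of Nhlh1 and 21.4% of Nhlh2 cells, against 54.1% of all cells. Mki67 was in 42.1% of Ptf1a cells and in 11.4% of Nhlh1 and 12.3% of Nhlh2 cells, against 34.0% of all cells.

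At day 8 the ends of the Dcx order were the same. Dcx was in 5.41% of Ptf1a cells, 54.4% of Neurod4, 58.2% of Neurod1, 77.7% of Nhlh1 and 78.8% of Nhlh2 cells, against 11.9% of all cells. Atoh1 and Neurog1 cells stood at 27.7% and 32.6%. Dcx in Olig3 cells was 12.0% at day 8, near that of all cells. Sox2 and Mki67 did not put Ptf1a cells at the progenitor end at day 8. Sox2 was in 78.4% of Ptf1a, 79.0% of Neurog2 and 81.7% of Olig3 cells, against 81.6% of all cells. Mki67 was in 45.9% of Ptf1a cells, against 59.1% of all cells. Nhlh1 and Nhlh2 cells stayed lowest, with Sox2 in 36.0% and 36.5% and Mki67 in 21.8% and 26.1%. A cell enters these sets by a UMI of the gene at 8000 UMIs, so cells with little of it are missed.

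**Figure D5:**
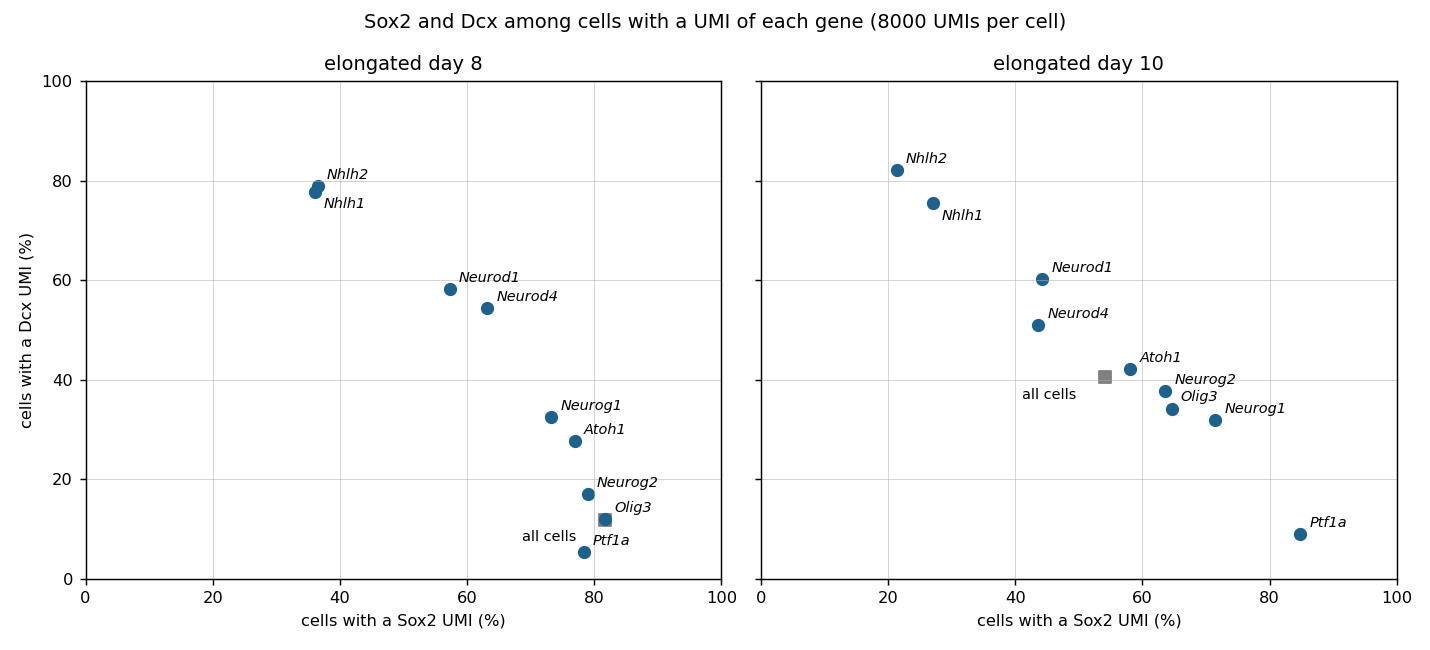
Percent of cells with a Sox2 UMI (x axis) and with a Dcx UMI (y axis) among the cells with a UMI of each gene, at day 8 and day 10, with all cells as a square. At day 10 the points run from Ptf1a, with Sox2 in 84.8% and Dcx in 9.0%, through Neurod4 and Neurod1 to Nhlh2, with 21.4% and 82.2%.

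Subtype genes in the same cells were described as levels. Barhl1, a homeodomain factor of dI1 neurons and a known Atoh1 target, was at 171.0 CPM in day 10 cells with Atoh1, against 35.3 CPM in all cells, and at 72.0 CPM against 1.56 CPM at day 8. Prdm13, a known Ptf1a target, was at 101.9 CPM in cells with Ptf1a, 80.5 CPM in cells with Neurog2 and 2.68 CPM in cells with Atoh1 at day 10, against 15.5 CPM in all cells.

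The genes of most similar pattern were found over 32 sums of 1 class in 1 library, in the table of days 6 to 10, by Pearson correlation of log2(CPM + 1) among 8694 genes. These sums share libraries, and the values are descriptions. Nhlh2 was most like Nhlh1 (r = 0.97), Mir124a-1hg (0.97) and Scrt1 (0.96), and Nhlh1 was most like Scrt2 (0.98), Myt1 (0.97) and Kalrn (0.97). Atoh1 was most like Barhl1 (0.87), Gmpr (0.84) and Selenom (0.84). Ptf1a was most like Wnt7b (0.86), Gsx2 (0.84) and Kirrel2 (0.84), and Neurog2 was most like Mybl1 (0.80), Vxn (0.79) and Ptf1a (0.74). Neurog1 was most like Smarca5 (0.85), Neurod4 (0.84) and Phc2 (0.81), and Neurod4 was most like Lbx1 (0.86), Spsb4 (0.86) and Phc2 (0.86). Neurod1 was most like Rgs8 (0.91), Nfasc (0.90) and Dll3 (0.89), and Olig3 was most like Pik3c2b (0.75), Tob1 (0.74) and Pde10a (0.74).

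Partners and opponents of bHLH factors were read at day 10 against elongated day 6, where 14.1% of all genes tested were higher and 12.3% lower. Of the 3 E proteins, Tcf12 (log2 1.12 ± 0.30, edgeR adjusted p = 0.0301) and Tcf4 (1.30 ± 0.26, adjusted p = 0.0116) rose, and Tcf3 had -0.47 ± 0.30. Of the 4 Id inhibitors, Id4 rose (1.98 ± 0.29), and Id1, Id2 and Id3 had -0.17 ± 0.29, 0.52 ± 0.27 and 0.26 ± 0.27. Of the 7 Hes and Hey genes, 4 rose and 2 fell. Hes5 (1.34 ± 0.25), Hes6 (2.24 ± 0.34), Hey1 (2.06 ± 0.31) and Heyl (4.96 ± 0.58) rose, of which Hes6 is known to promote neuron formation. Hes1 (-2.10 ± 0.36) and Hes3 (-7.08 ± 0.41) fell, and Hey2 had 1.26 ± 0.43. The median of the Hes and Hey list was 1.34, against -0.01 for all genes.

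Of 15 genes of neurogenic intermediate cells, many of them known proneural targets, 11 rose and 0 fell at day 10, with a median of 2.34, where 14.1% of all genes tested were higher and 12.3% lower. Insm1 (log2 6.71 ± 0.41), Srrm4 (4.73 ± 0.49), Gadd45g (4.68 ± 0.45) and Dll3 (4.14 ± 0.36) were among them. All 12 young neuron genes rose, Dcx by 9.52 ± 0.38 and Map2 by 6.22 ± 0.34. All 5 dI1 genes rose (median 6.66), as did 3 of 5 dI2 genes and 4 of 5 dI3 genes (median 4.13 in each), and 0 fell. Pou4f1, which rose, is in the dI1, dI2 and dI3 lists. Of 10 genes of the Ptf1a lineage 5 rose (Gad1, Kirrel2, Lbx1, Lhx1 and Prdm13) and 0 fell.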

How the data were processed

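Single-cell RNA was measured in 6 libraries. Per the labels, the authors used Cell Ranger 3.1 and the mouse build mm10 (GRCm38), and the deposited matrices hold raw UMI counts per gene and cell. The authors' metadata give UMIs and genes per cell as counts, the mitochondrial share in percent, and class and library names (other). How the authors filtered cells and set classes is not given in the sources used here. The day 6 table calls its libraries NENT and SENT, and matching these to non-elongated and elongated rests on the initials.

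UMIs were summed per library and tested in R 4.3.3 with edgeR 4.0.16 (TMM, filterByExpr minimum count 10, glmQLFit with 5 group means, Benjamini-Hochberg over 16379 genes) and, as an alternative, DESeq2 1.42.0. The test was also run on simulated counts that had the same spread for every gene and no batch difference. That run does not cover spread that differs by gene or a batch difference. The SE given with an edgeR log2 fold change is its absolute value divided by the square root of the test's F. Shares used cells thinned to 8000 UMIs (2 or fewer cells of a library were shallower), with Clopper-Pearson intervals. Intervals of 95% and the limit of 3 counts at 0 cover counting error only. The 9 genes, gene lists and the rule for named genes (every member, the lists' largest called changes with at least 10 CPM, and 3 most similar genes per member) were chosen with earlier results of these data known. Positions are from GENCODE vM21. Other scalings, filters and left-out libraries were tried. Per-sample columns left unused numbered 0. Some members of the lists are not reported here.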

Additional observations from a re-analysis of the deposited data

How the results depend on the processing

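All 30 calls among the 9 genes kept their direction in all 234 pairings of a call with another setting. The settings were other scaling, no filter on low counts or a minimum count of 100, DESeq2, the neural classes alone, and leaving out a library. They reuse the same 6 libraries, so the pairings are not independent. The 8 calls at day 10 against elongated day 6 stayed past the threshold wherever a test remained. The neural classes alone left out little of elongated day 6 replicate 2, whose table has no epiblast class. For day 8 against day 7, where 2 were called, a minimum count of 100 or the neural classes alone gave 1 and DESeq2 gave 4. For day 10 against day 8, where 1 was called, RLE scaling gave 3, DESeq2 gave 4, and no filter or a minimum count of 100 gave 0. The slope count was 0 to 7 when each elongated library was left out in turn, against 7 with all, 0 being without elongated day 6 replicate 2 and 3 without replicate 1. The direction turned for some genes that were not called. With other scaling or classes these were Ptf1a in non-elongated against elongated day 6 (-0.82 in the neural classes alone), Neurod1 at day 7 (0.10 with library size alone and 0.21 in the neural classes alone) and Olig3 at day 8 (0.11 with library size alone). With 1 elongated day 6 replicate left out, the sign depended on which: in non-elongated against elongated day 6, without replicate 1 and without replicate 2, Olig3 had -0.77 and 0.82, Neurod1 -0.49 and 0.19, and Neurod4 -0.01 and 1.07. Likewise Neurod1 at day 7 had -0.31 and 0.36, and Olig3 at day 8 had -0.62 and 0.97. The cause was not tested. Without thinning, 50 of 54 shares of cells with a UMI lay outside the 95% interval of the share at 8000 UMIs, and at 5000 UMIs 25 of 54 did. No paired analysis was possible because only elongated day 6 has more than 1 replicate. At day 6, Atoh1, Neurog1, Ptf1a, Neurod4, Nhlh1 and Nhlh2 had between 0 and 37 UMIs in a library, so differences there are poorly resolved.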

Other observations

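A few day 10 cells held a large part of the Neurod1 UMIs. The 16 cells with 10 or more Neurod1 UMIs, a limit chosen after the values were seen, were 0.435% of the library and held 524 of 1572 Neurod1 UMIs (33.3%), with up to 88 in a cell. No cell had 9 UMIs and 2 had 8. The authors placed 8 of the 16 in the proliferative neural progenitor class, 7 in dI2 and 1 in dP2/3. The levels of 2 sensory neuron genes were higher in these 16 cells than in the 583 cells with 1 to 9 Neurod1 UMIs: Isl1 at 264.2 CPM against 9.72 CPM and Pou4f1 at 297.8 CPM against 69.5 CPM. Prph, a gene of peripheral neurons, had 1 UMI, and Sox10, a neural crest gene, had 0. The 16 cells held 46.1% of all Isl1 UMIs of the library. Isl1 UMIs were found in 9 of the 16 cells, Dcx in 11 and Mki67 in 9. The median depth was 41806.5 UMIs in the 16 cells and 19944 UMIs in the 583 cells, and no doublet call was made, so the part of doublets in these values was not tested.

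The proliferative neural progenitor class held 30.5% of the Neurod1, 28.6% of the Neurod4 and 16.3% of the Neurog1 UMIs of day 10 in 4.30% of the cells. Of the Neurod1 UMIs of this class, 8 cells held 284 of 479 (59.3%). The class had Nhlh2 at 378.5 CPM, and its median depth was 27476 UMIs against 22053 UMIs for the library. The part of depth and of doublets in these shares was not tested.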
